A study of Drosophila melanogaster with 3 samples.

Results

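The Wingless pathway genes described here are 10 genes chosen by name for their roles in the pathway, of 13945 protein-coding genes on the chromosomes covered. They comprise 1 ligand gene (wg), 3 genes of receptors and their coreceptor (fz, fz2 and arr) and 6 genes of intracellular components (dsh, Axn, sgg, Apc, arm and pan). All 10 symbols matched a gene of the annotation. The data are ChIP-seq peak lists for putzig (pzg), a zinc finger protein known from complexes with the core promoter factor Trf2, the transcription factor Dref and the nucleosome remodeller NURF. There is 1 group, with 3 biological replicates, of whole Drosophila melanogaster embryos of mixed sex aged 0 to 24 h, from the pzg-GFP line. This line stably expresses putzig with GFP fused to its C-terminus, and the labels do not say what drives the transgene. The free text of each library names an input control, whereas the assay and antibody fields name a putzig ChIP, and the libraries were treated as putzig ChIP. With no second condition there is nothing to test between groups, so the values below are given with their spread over the replicates and without p-values.

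Wingless is a secreted Wnt protein that patterns segments, wings and guts of the fly. In its absence a destruction complex built on the scaffolds Axin and Apc lets the GSK3 kinase Shaggy (sgg) mark Armadillo (arm, the fly beta-catenin) for degradation. When Wingless engages Frizzled receptors (fz, fz2) and the LDL-receptor-related coreceptor Arrow (arr), Dishevelled (dsh) disables that complex, and Armadillo enters the nucleus to work with the TCF factor Pangolin (pan) at target genes.

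Promoter sequences of members with and without putzig are shown first, because the results turn on which starts carried a peak. Those of arr, which was bound, and of fz, which was not, are left out. Each runs from 110 bases before to 20 bases after the outermost annotated transcription start site (TSS), 5′ to 3′ on the strand of the gene, in dm6 coordinates and read from the RefSeq genome. Capitals mark matches, on either strand, to GGTCACAC (Motif 1 of housekeeping promoters) or to CGATA, a short element recognised by the insulator protein BEAF-32 and contained in the Dref site TATCGATA. A capital TATCG is CGATA read on the other strand. The first 5 sequences belong to starts with a reproducible putzig summit within 250 bp, and the last 3 to starts without.
dsh, chrX:11355771-11355900, plus strand: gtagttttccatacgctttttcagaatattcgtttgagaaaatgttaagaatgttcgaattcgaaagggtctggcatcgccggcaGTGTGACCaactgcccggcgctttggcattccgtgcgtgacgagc
Axn, chr3R:30022732-30022861, plus strand: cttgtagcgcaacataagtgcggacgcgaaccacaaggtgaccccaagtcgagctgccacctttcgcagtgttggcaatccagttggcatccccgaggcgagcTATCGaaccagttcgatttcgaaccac
sgg, chrX:2633842-2633971, plus strand: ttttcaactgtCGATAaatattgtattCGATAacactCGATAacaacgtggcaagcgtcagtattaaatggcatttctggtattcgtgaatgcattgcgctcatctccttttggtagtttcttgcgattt
arm, chrX:1900627-1900756, minus strand: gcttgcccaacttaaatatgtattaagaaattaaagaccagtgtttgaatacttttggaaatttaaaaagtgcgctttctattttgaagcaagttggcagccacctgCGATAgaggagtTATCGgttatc
pan, chr4:69216-69345, plus strand: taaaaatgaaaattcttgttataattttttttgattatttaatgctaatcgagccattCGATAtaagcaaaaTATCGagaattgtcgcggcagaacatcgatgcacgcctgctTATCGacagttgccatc
wg, chr2L:7307049-7307178, plus strand: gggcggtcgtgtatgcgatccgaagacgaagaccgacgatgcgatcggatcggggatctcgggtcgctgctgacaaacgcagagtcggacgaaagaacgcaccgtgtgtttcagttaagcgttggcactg
fz2, chr3L:19235354-19235483, minus strand: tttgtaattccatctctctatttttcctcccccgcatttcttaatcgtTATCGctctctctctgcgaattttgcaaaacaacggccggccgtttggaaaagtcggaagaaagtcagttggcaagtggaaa
Apc, chr3R:28844729-28844858, minus strand: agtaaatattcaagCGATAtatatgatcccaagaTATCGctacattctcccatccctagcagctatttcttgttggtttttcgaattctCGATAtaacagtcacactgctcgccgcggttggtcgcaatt

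Putzig was found at the starts of the coreceptor and of most intracellular components, and not at the ligand gene. A gene was counted as bound when a summit of the reproducible list, the 6522 summits kept by the irreproducible discovery rate, lay within 250 bp of any of its annotated TSSs. By this rule 6 of the 10 members were bound (60%), against 42.6% of all protein-coding genes. By role, 0 of 1 ligand gene, 1 of 3 receptor genes (arr) and 5 of 6 intracellular genes (dsh, Axn, sgg, arm and pan) were bound. The unbound members were wg, fz, fz2 and Apc. With 1, 3 and 6 genes per role these counts only describe the members, which were chosen with earlier results of these data known. With 10 genes, 60% is not read as different from 42.6%. The same 6 genes were bound in the 6522 strongest peaks of each replicate, with fz2 added in replicate 2 and Apc in replicate 3. Of all protein-coding genes, 42.4%, 42.3% and 41.7% were bound in replicates 1, 2 and 3. Chromatin came from whole embryos, so fewer cells with putzig at a start and less putzig per cell cannot be told apart.

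**Figure D1:**
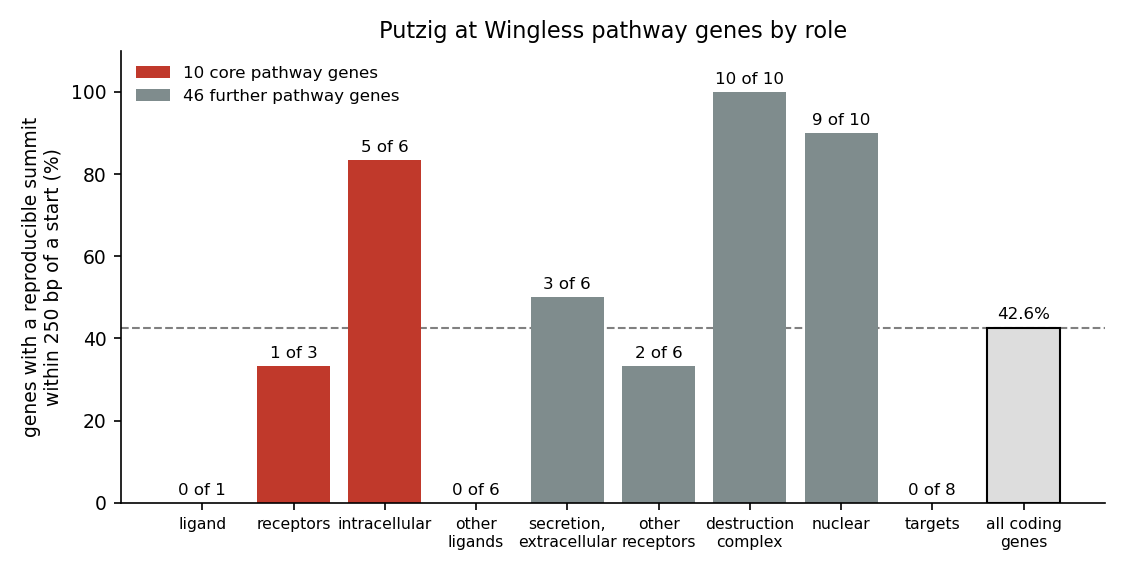
Share of genes with a reproducible putzig summit within 250 bp of a start (percent, vertical axis) for the 10 core pathway genes by role (red), 46 further pathway genes by role (grey) and all protein-coding genes (light bar and dashed line, 42.6%). The bars of the destruction complex (10 of 10), the nuclear factors (9 of 10) and the core intracellular genes (5 of 6) stand above the line. So does that of the secretion and extracellular genes (3 of 6). The bars of genes filed as receptors (1 of 3 and 2 of 6) stand below it, and those filed as ligands or targets are at 0.

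Among the cell surface genes, arr stood apart from fz and fz2. The arr gene has a single annotated start, on the minus strand of chromosome arm 2R, and its peak (chr2R:13483018-13483540) had the summit 47 bp upstream of it. This summit ranked 80 of 6522 with a deposited signal of 6461, in units of the authors' caller that have no stated scale and are compared here only within a list. In the lists of replicates 1, 2 and 3 the arr peak ranked 66, 83 and 116. Expressed as a percentile of the 6522 strongest peaks of each replicate, it lay at 98.7 ± 0.390 (SD, n = 3). The signal of arr exceeded that of 98.1% of the 5939 bound protein-coding genes, the highest share among the members. It ranked above the other members in replicates 1 and 2, and in replicate 3 Axn ranked above it.

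The Frizzled genes had only weaker entries, which are found in the longer lists of 30000 entries that include background by design. Among protein-coding genes, 55.9% had a summit of any strength in the pooled list within 250 bp of a start, and 47.5% had one with a q value of at most 0.05. The single start of fz had a pooled entry 182 bp upstream, with rank 24381 and q = 0.555. Replicate 3 had an fz entry of rank 21391, and replicates 1 and 2 had none within 250 bp. The entry at fz is thus among the background of these lists by its q value. For fz2, which has 3 starts spread over 88613 bp, the strongest pooled entry lay 55 bp upstream of the outermost start, with rank 7071, signal 192 and q = 0.000354. The reproducible list ends at a signal of 235, so fz2 fell just short of it. At that start replicate 1 held an entry of rank 7683 (q = 0.00657) and replicate 2 one of rank 6446 (q = 5.62e-05), and replicate 3 held none within 250 bp. The middle fz2 start, 64725 bp downstream and the origin of 5 of the 8 transcripts, had pooled entries of rank 8456 (q = 0.00834) and 10293 (q = 0.0499). Its strongest entries in replicates 1, 2 and 3 ranked 7312, 10063 and 8826 (q = 0.00362, 0.000348 and 0.0899). In replicate 1 the middle start thus had a stronger entry than the outermost one, and in replicate 2 a weaker one. The innermost start had no entry within 250 bp in the lists examined. All 3 fz2 starts lead to the same start codon.

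The ligand gene wg had no reproducible summit near its start. Its single start (chromosome arm 2L, position 7307159, plus strand) had a pooled entry 222 bp upstream, with rank 18676 and q = 0.385. Replicate 1 had an entry there of rank 14953 and replicate 3 one of rank 9921, with q values of 0.333 and 0.130, and replicate 2 had none. The nearest reproducible summit lay 25515 bp upstream, with a signal of 303, and the TSS nearest to that summit was one of Wnt4, 4473 bp away. For fz the nearest reproducible summit was 61865 bp away.

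**Figure D2:**
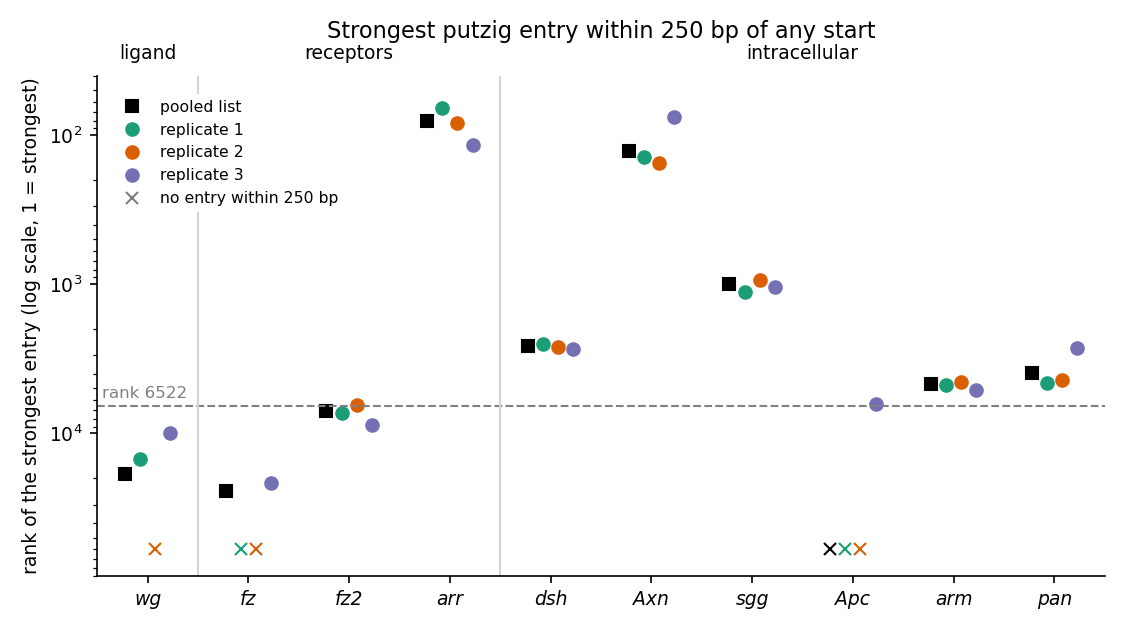
Rank of the strongest entry within 250 bp of any start (vertical axis, log scale, 1 is strongest) for each member in the pooled list and in the list of each replicate, with crosses where a list has no entry. The 6 bound members stand above rank 6522 (dashed line) in every list, with arr and Axn highest, while wg and fz lie far below it, and fz2 and Apc cross it in 1 replicate each.

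Within the destruction complex, Axn and sgg carried putzig and Apc did not by the rule used. Axn encodes the scaffold of the complex, and its peak (chr3R:30021990-30023055) had a summit 56 bp upstream of the outer of 2 starts, with rank 128 and signal 5693. In replicates 1, 2 and 3 it ranked 141, 154 and 76, a percentile of 98.1 ± 0.641 (SD, n = 3). The percentile ranges of arr and Axn overlapped over the replicates, so their order is within the replicate spread. The same summit also lay 138 bp upstream of RpS28a, a ribosomal protein gene on the opposite strand whose start is 194 bp from that of Axn. It was nearer to Axn, and a single summit cannot be divided between the genes. A weaker summit of the same interval, with signal 491, stood 8 bp from the start of the next gene, Mgat2. The inner Axn start, 4519 bp downstream, had a pooled entry of rank 23547 (q = 0.536), with entries of rank 22097 and 26878 in replicates 2 and 3 and none in replicate 1. All Axn transcripts share a start codon.

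The sgg gene, which encodes the Shaggy kinase, has 11 annotated starts and 19 transcripts, and 2 of these starts were bound. At the outermost start, which gives 6 transcripts, the peak (chrX:2633747-2634139) had its summit 24 bp upstream, rank 1003 and signal 2654. The replicates ranked it 1133, 934 and 1046, a percentile of 84.1 ± 1.53 (SD, n = 3). The next start lies 263 bp inside the gene, 287 bp from this summit, and so missed the window of 250 bp by little. The ninth start, 12685 bp inside the gene and used by 1 transcript, had a weaker peak (chrX:2646309-2646556) in an intron of longer transcripts. Its summit lay 213 bp upstream of that start with rank 4648 and signal 575, and its percentile over the replicates was 23.3 ± 10.5 (SD, n = 3). In replicate 3 the corresponding summit lay 277 bp upstream, outside the window, and ranked 5788. The outermost 3 sgg starts share a start codon at position 2642009, while the ninth leads to another at 2659350, which it shares with the tenth. Another sgg summit, with signal 405, lay in an intron 1017 bp upstream of the third start and counted for no TSS.

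The intronic sgg peak held the only match among the member summit windows, 100 bp to each side of a summit, to CTTTGAT, the core of the site that TCF factors such as pan recognise. It is shown from 60 bases before to 40 bases after the summit, with the match in capitals on the other strand.
sgg internal peak, chrX:2646364-2646464, plus strand: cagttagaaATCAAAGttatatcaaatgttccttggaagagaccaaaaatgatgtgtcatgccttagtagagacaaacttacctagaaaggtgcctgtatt
CTTTGAT was present in 2.76% of all 6522 reproducible summit windows and in 3.28% of windows of the same length at annotated starts of protein-coding genes. The match lay 51 bp before the summit, and these counts say nothing about whether pan binds there.

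Apc, the other scaffold of the destruction complex, is listed as unbound although a strong peak reached over its start. The reproducible interval chr3R:28844486-28845472 contains the outer Apc start at 28844748, but its summit, with rank 446 and signal 3770, lay 404 bp upstream. The TSS nearest to that summit was that of spg, a gene on the opposite strand, 118 bp away. Replicates 1, 2 and 3 placed this summit 404, 405 and 429 bp upstream of Apc with ranks of 420, 494 and 323. Replicate 3 listed a separate, weak entry 78 bp downstream of the outer Apc start, with rank 6329, signal 47.7 and q = 0.00766, and another of rank 23400 at the inner start. The pooled list and replicates 1 and 2 had no summit within 250 bp of either Apc start. A window of 500 bp counts Apc as bound through the summit nearer to spg.

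Dishevelled, the relay between receptors and destruction complex, had a peak of the same position in every list. The dsh gene has 1 start and 1 transcript, and its peak (chrX:11355618-11356039) had a summit 11 bp upstream of the start, rank 2597 and signal 1392. The summit fell at the same base in the lists of all 3 replicates. It ranked 2518, 2616 and 2714, a percentile of 59.9 ± 1.50 (SD, n = 3). This was close to the middle of the bound genes, since 45.7% of bound protein-coding genes had a weaker signal than dsh.

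The nuclear effectors arm and pan had start peaks below the median signal of the reproducible list, which was 1077. The arm gene has 4 starts, all leading to the same start codon, and the outer 2 were bound by separate peaks. The outermost start had its summit 4 bp downstream, in the 5′ UTR (chrX:1900434-1900808), with rank 4676 and signal 568. The replicates ranked this summit 4733, 4530 and 5097, a percentile of 26.6 ± 4.40 (SD, n = 3). The asRNA:CR45929 gene starts 122 bp upstream on the opposite strand, with the same summit 126 bp upstream of its own start. The second arm start, 473 bp further in, had an intronic summit 142 bp downstream of it (chrX:1899897-1900426), with rank 5527 and signal 365, the weakest of the 8 member summits. Its position varied, at 154, 175 and 41 bp downstream in replicates 1, 2 and 3, and its percentile was 13.9 ± 5.14 (SD, n = 3). The inner arm starts had only an entry of replicate 3, of rank 8153 (q = 0.0640), within 250 bp. Of bound protein-coding genes, 13.5% had a weaker signal than arm.

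At pan, on chromosome 4, putzig signal was spread over the upstream kilobase. The interval chr4:68506-69507 carried 3 reproducible summits, at 563, 300 and 3 bp upstream of the outermost pan start, with signals of 2128, 575 and 814. Only the last lay within 250 bp, so the rule gives pan its rank of 3955, while the summit farther upstream ranked 1491. The replicates ranked the summit at the start 4592, 4360 and 2672, a percentile of 40.6 ± 16.1 (SD, n = 3), in which replicate 3 stood above the others. Near the middle summit, replicates 1 and 2 had entries 319 and 334 bp upstream. These ranked 4245 and 3968, higher than the one at the start. Replicate 3 listed entries 576 and 19 bp upstream and none between them. The summit 563 bp upstream ranked 1539, 1865 and 1122 in the replicates, higher than the one at the start in each of them. No TSS of another gene lay closer to it than that of pan, and the neighbouring RpS3A gene had its own summit 2047 bp upstream of pan. The outermost start gives 5 of the 9 pan transcripts, and the 3 inner starts, of which the innermost leads to another start codon, were unbound.

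**Figure D3:**
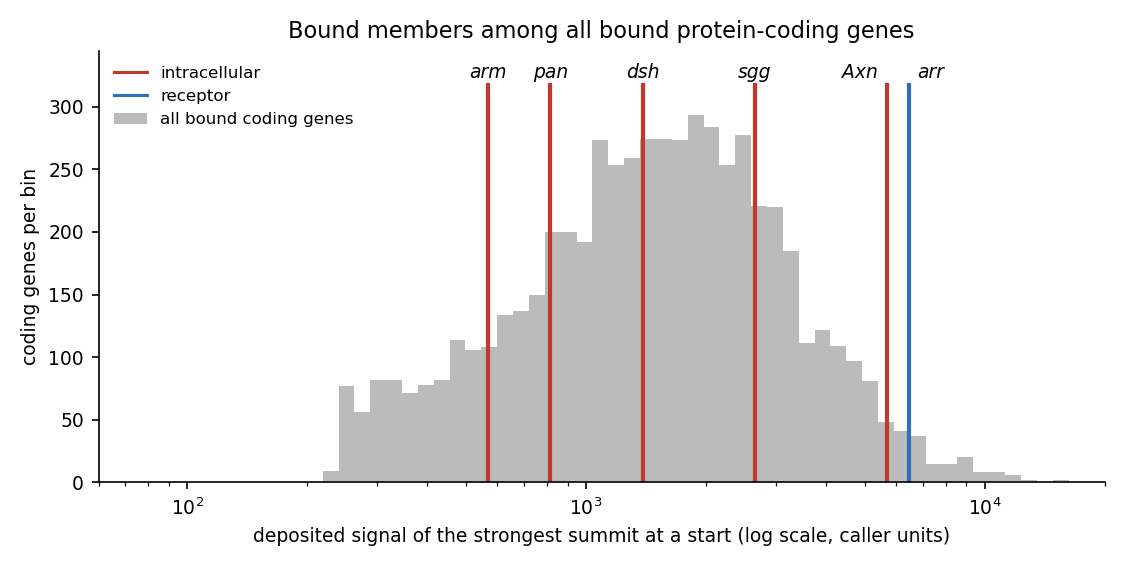
Distribution of the deposited signal of the strongest summit at a start (horizontal axis, log scale, caller units) over the 5939 bound protein-coding genes (grey bars, genes per bin), with the 6 bound members as vertical lines. The members span the distribution, with arm (568) and pan (814) in its lower part and Axn (5693) and arr (6461) in its upper tail.

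The bound members therefore differed widely among themselves in rank. The median signal of the strongest summit at the 6 bound members was 2023, against 1517 at all 5939 bound protein-coding genes. From high to low the replicate percentiles ran arr, Axn, sgg, dsh, pan and arm. The ranges over the replicates did not overlap between Axn and sgg or between sgg and dsh. They overlapped between arr and Axn, between dsh and pan, where replicate 3 of pan reached 59.0 against 58.4 for dsh, and between pan and arm.

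Where a bound member had several starts, the outermost one was bound. This held for 4 of 4 such members (Axn, sgg, arm and pan), and for 86.4% of all bound protein-coding genes with several starts, so the members did not stand out. Counting each start, 8 of 30 member starts were bound (26.7%), against 36.3% of the start positions of all protein-coding genes. Summits lay 3 to 56 bp upstream at the outermost starts of pan, dsh, sgg, arr and Axn, and 4 bp downstream at that of arm. Over all 7727 pairs of a protein-coding start and a reproducible summit within 250 bp, the median offset was -44 bp (negative is upstream). At the outermost starts of the bound members the replicate offsets had an SD of at most 15.0 bp. The internal starts of sgg and arm had larger SDs, of 45.1 and 72.1 bp (n = 3 each).

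**Figure D4:**
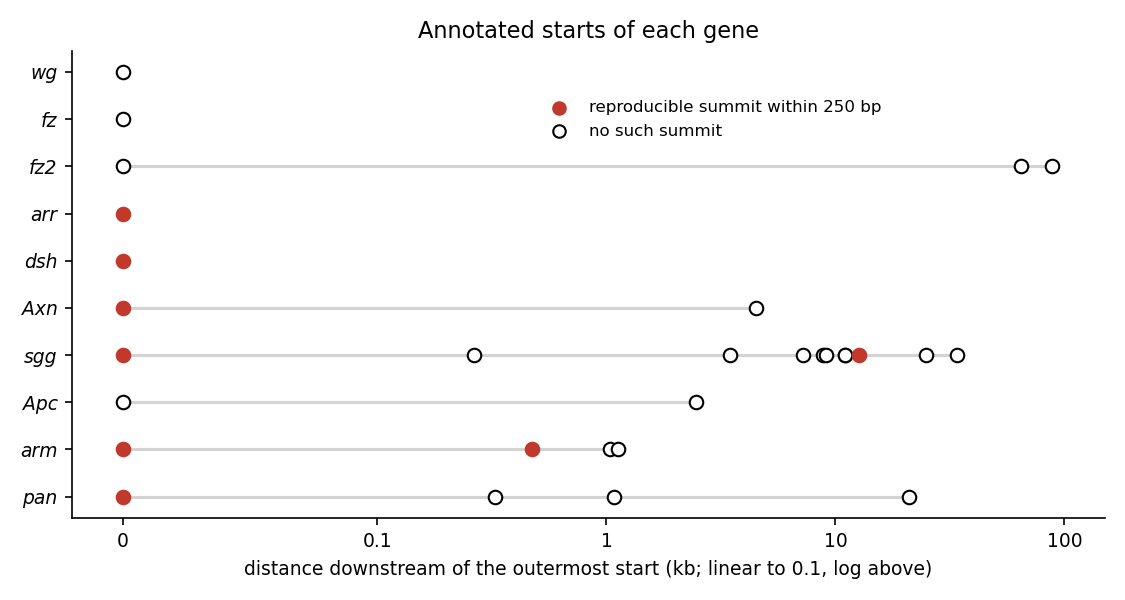
Annotated starts of the 10 members, placed by distance downstream of the outermost start (kb, linear to 0.1 and logarithmic above), with filled points for starts that have a reproducible summit within 250 bp. The filled points stand at the outermost start of arr, dsh, Axn, sgg, arm and pan, and at 1 further start each of sgg and arm.

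**Figure D5:**
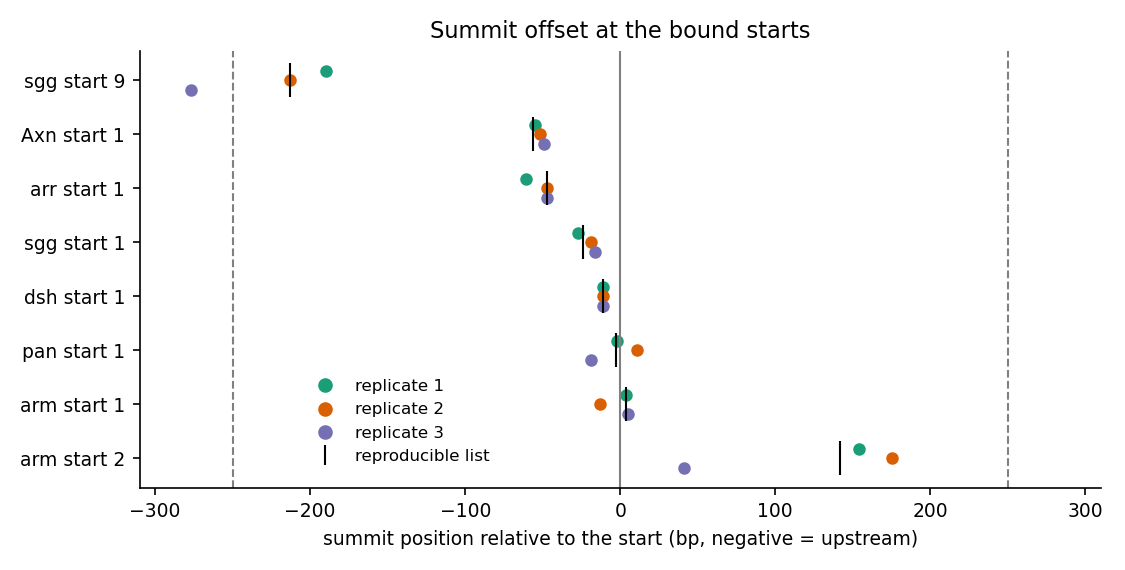
Position of the putzig summit relative to each bound start (bp, negative is upstream) in the reproducible list (bars) and in the list of each replicate (points), with dashed lines at the limits of 250 bp. The 6 outermost starts have summits close to the start in all replicates, whereas those at sgg start 9 and arm start 2 scatter and lie farther away.

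The sequences around the member summits held different elements. The Dref site TATCGATA, present in 14.5% of all reproducible summit windows and in 6.45% of same-length windows at coding starts, occurred in 0 of the 8 member windows. Farther out, dsh had 1 copy beginning 223 bp upstream of its start. Motif 1, GGTCACAC, was in 2 of 8 member windows, those of arr and dsh, against 12.7% of all summit windows and 5.68% of start windows. At dsh it began 25 bp upstream of the start, and at arr 8 bp downstream. CGATA was in 4 of 8 windows, at the outermost starts of Axn, sgg, arm and pan, against 51.6% of all summit windows and 37.1% of start windows. The sgg and pan windows held 3 copies each, visible in the sequences above. CGATA was not confined to bound starts, since it also lay within 100 bp of the start of fz, of the outer start of Apc and of all 3 starts of fz2. The E-box CAGCTG was in 1 window, that of the internal sgg peak, against 18.6% of all summit windows and 13.4% of start windows. The 8 windows also lacked a further 4 motifs. The TATA box TATAAAA was in 11.6% of all summit windows and 13.1% of start windows. The GAGA factor site GAGAGAG was in 3.43% and 4.69% of them, the Zelda site CAGGTAG in 0.690% and 1.08%, and the core promoter element CAGCGCTA in 0.552% and 0.405%. Among unbound starts, GAGAGAG lay within 100 bp of the start of fz, of 2 starts of fz2 and of 2 unbound starts of sgg. With 8 windows these counts only describe the members.

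A further list of 46 pathway genes was sorted by role. In all, 24 of 46 were bound (52.2%), against 42.6% of all protein-coding genes. The list was assembled with earlier results of these data known and is no independent evidence. None of the 6 other Wnt ligand genes (Wnt2, Wnt4, Wnt5, Wnt6, Wnt10 and wntD) was bound, and the best of them, Wnt5, had a pooled entry of rank 7618. None of the 8 genes filed as Wingless targets (Dll, vg, sens, ac, Ubx, en, hth and dpp) was bound, with Dll nearest to the limit at a pooled rank of 6638. Each gene was filed under a single role. This count therefore does not cover every gene induced by Wingless, such as nkd, which was filed among the nuclear factors. Whether bound genes filed under other roles are also induced by Wingless was not examined. Of 6 other genes filed as receptors, fz4 (signal 1481) and fz3 (1427) were bound in all replicates, unlike fz and fz2 themselves. The others, LpR2, Corin, drl and otk, were not bound. This role is that of the list, and whether each of these genes acts as a Wingless receptor was not examined.

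The intracellular part of the further list was bound almost throughout. All 10 genes of the destruction complex and its kinases, phosphatases and ligases were bound. This count and those of the other roles below stand beside 42.6% of all protein-coding genes. The strongest was CkIalpha, the casein kinase that primes Armadillo, with a signal of 6174 and rank 96. Next came wdb (4558), a regulatory subunit of the phosphatase PP2A, then slmb (3810), the F-box protein that targets phosphorylated Armadillo, and then tws (2965), another PP2A subunit. Apc2, the second Apc gene of the fly, was bound with a signal of 441, 215 bp upstream of its start, in 2 of 3 replicates, at a summit it shares with mRpS24. Of 10 nuclear factors 9 were bound, led by the corepressor gro (4900), the Armadillo cofactor pygo (2745), the Paf1 complex subunit hyx (2104) and the remodelling ATPase brm (1644). The exception was nkd, a feedback inhibitor that is itself induced by Wingless and acts on Dishevelled. Among genes of secretion and the extracellular space, 3 of 6 were bound, and dally, Notum and Swim were not. Those bound were the glypican dlp (1234), the Wingless sorting receptor wls (828) and the acyltransferase por (535). The por summit lay 158 bp upstream of its start, in 2 of 3 replicates, and is shared with CG6179. That of wls is shared with Adck5. Of the 24 bound genes, 22 were found in all replicates, and 8 shared their summit with another gene, among them slmb, pygo, hyx and brm. Neither count was set beside a share over all bound genes, so neither is read as a trait of the pathway.

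The members differed in the spacing to their neighbours. The outermost starts of wg and fz lay 26555 and 37619 bp from the nearest start of another protein-coding gene. For arr, dsh, Axn, sgg, arm and pan this distance was 194 to 9148 bp, and for the unbound genes fz2 and Apc it was 987 and 522 bp, both shorter than for arr, dsh, sgg, arm and pan. Over all protein-coding genes the median was 458 bp for bound genes and 2116 bp for unbound ones. Any part of this spacing in the result was not tested.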

How the data were processed

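Values came from 5 deposited peak lists in dm6: 1 per replicate and 1 pooled, each of 30000 entries including background, and the reproducible list. Per the file headers, each replicate list was derived from that replicate's alignment and 1 further file whose content is not stated. For aligner and caller, no name was found in the labels or headers. The peak signal is the authors' deposited value, ranked only within a list. The deposited −log10 q column was converted to a q value. The 6522 reproducible entries equal the strongest 6522 of the pooled list, so they are not independent of the replicates. Read depth is unknown, so no counting interval is given.

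TSSs came from Ensembl release 115, leaving out transposable elements. The RefSeq genome gave the bases, and in it 99.8% of 30593 start codons read ATG. Summits were joined to distinct TSS positions within 250 bp with Python 3.11.15 and pandas 2.3.3, and the functions were tested on simulated data. A replicate's value for a member summit came from the replicate entry that contains it and has the nearest summit. Motifs were sought on both strands within 100 bp of a summit. All 10 members are named, with other genes within 250 bp of a member summit and up to 4 bound genes per role of the further list, in which 2 symbols were matched after a change of case. Other neighbouring or unbound genes were named after their values were seen. The members and lists were chosen with earlier results of these data known. Alternatives covered the TSS window and assignment, the starts used, the peak set, the replicates in which a summit had to be present and the motif window.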

Additional observations from a re-analysis of the deposited data

How the results depend on the processing

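The 6 bound members stayed the same with a TSS window of 100 bp, with the nearest or the outermost TSS only, and among summits found in all replicates. The reproducible list was not remade without a replicate. Its summits were only filtered for presence in the other replicates when 1 was set aside. All 8 member summits were present in all 3 replicates. This filter, and a filter for summits found in all replicates, therefore could not change the member counts. With 1 replicate set aside, 22 to 24 of the further genes were bound. A window of 500 or 1000 bp added Apc, and these windows counted 12 and 13 member starts, against 8. Among summits above the median signal 4 members were bound at 4 starts, and 3 of these members were intracellular genes. The strongest peaks of replicate 2 and the pooled entries of q at most 0.05 each gave 2 bound receptor genes, since fz2 was added. Of all protein-coding genes, 42.3% and 47.5% were bound in these sets, in that order. All pooled entries, background included, gave 9 members, 16 starts, 1 ligand, 3 receptors and 37 further genes, against 55.9% of all protein-coding genes. For the other windows and choices of start this share is not given, so those counts only describe the listed genes. The median signal percentile of the bound members was 72.4 in the reproducible list and 71.5 in replicate 3. With 50 bp to each side of the summit, 4 of 8 member windows held any of the motifs, against 7 with 100 bp. The share of all summit windows with any of the motifs is not given, so these counts only describe the members. No paired analysis was possible because there is 1 group. Unbound means no summit of the list within the window: at the outer Apc start and the second sgg start a listed summit lay farther away. Read depth is unknown.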

Other observations

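The surroundings of the members also differed. Within 3000 bp of the ends of wg and fz there was no reproducible summit. Apc lay between 2 strong peaks that belong to its neighbours by distance, that at spg (signal 3770) and that 54 bp from the start of WASp (signal 3979), an activator of actin branching. Downstream of dsh a summit of signal 1422 stood 68 bp from the start of Pa1, close to the 1392 of dsh itself. Near arm, the summit at mRpL16 and trr had a signal of 2994, above the 568 of arm, and near pan that of the ribosomal protein gene RpS3A had 2757. Upstream of arr, 1 summit of signal 1728 served the starts of cbc and cid, the fly centromeric histone.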
